A study of Mus musculus with 4 samples.

Results

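C1q-negative leukocytes of the embryonic mouse ventricle are white blood cells that hold RNA of the signalling adaptors *Tyrobp* and *Fcer1g* and next to none of the complement genes *C1qa*, *C1qb* and *C1qc*. They were chosen by counts of unique molecular identifiers (UMIs, 1 for each captured RNA molecule) in single cells. A member had 700 to 7000 genes detected and at most 10% mitochondrial UMIs. It had under 0.5% of its UMIs from the cardiomyocyte genes *Tnnt2*, *Actc1*, *Tnnc1* and *Ttn*, and at most 2 UMIs of the endothelial genes *Pecam1*, *Cdh5*, *Emcn* and *Egfl7*. It had at least 3 UMIs of *Tyrobp* and *Fcer1g* together, and at most 1 UMI of the C1q genes together. Of 45551 deposited barcodes, 36590 passed the limits on genes and mitochondrial UMIs, and 162 of these were C1q-negative leukocytes. Cells that met every other limit but held 2 or more C1q UMIs numbered 565 and are called C1q-positive cells.

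The study asked how loss of *Ets1* from the endothelium alters the developing ventricle, and sequenced single cells of ventricles at embryonic day 14.5. Control embryos were Tie2Cre;*Ets1* fl/+ and *Ets1* eKO embryos were Tie2Cre;*Ets1* fl/fl, on a C57BL/6 background, so that both groups carried Cre and a floxed allele, and none was treated. Each group had 2 libraries, each library pooled the ventricles of 3 embryos whose sex was not recorded, and the labels place all 4 libraries in 1 batch. Tie2Cre is driven by an endothelial promoter that is also known to be active in the blood lineage, so leukocytes are not a compartment outside its reach.

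Tyrobp and FcRγ, the product of *Fcer1g*, are membrane adaptors that pass signals from activating and Fc receptors through the kinase Syk, and nearly all myeloid cells carry them. C1q is made in tissues mainly by resident macrophages, which seed the heart from the yolk sac and fetal liver, so leukocytes without it are a mixed remainder that can hold monocytes, granulocytes, mast cells and dendritic cells. ETS1 is a transcription factor best known in lymphocytes and endothelium.

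The libraries held 124140739 and 76931208 UMIs in controls 1 and 2, against 95131419 and 102872196 UMIs in *Ets1* eKO 1 and 2. The C1q-negative cells together held 319011 and 71716 UMIs in the controls, against 239738 and 267611 UMIs in *Ets1* eKO. Their median depth was 5775 and 5511.5 UMIs per cell in the controls, against 5549 and 3818 UMIs for *Ets1* eKO. Control 2 thus had the smallest sum, from 12 cells, and *Ets1* eKO 2 the shallowest cells. Among all barcodes, pairs of libraries shared between 19 and 47 sequences, and no barcode of a member was shared.

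Few cells lay next to the limits of the rule. Of the members, 144 held 0 and 18 held 1 C1q UMI. Just outside, 6 cells held 2 and 9 cells held 3, while 502 held 12 or more. At the leukocyte limit, 6 members held exactly 3 UMIs of *Tyrobp* and *Fcer1g*, and 10 cells that met all other limits held 2. At the endothelial limit 5 members held 2 UMIs and 1 cell outside held 3. At the cardiomyocyte limit 5 members had 0.25% or more, and 3 cells outside had under 0.75%. Of the 18 cells with 1 C1q UMI, 11 came from *Ets1* eKO 2, 6 from control 1, 1 from *Ets1* eKO 1 and none from control 2.

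The label leukocyte was checked against genes outside the rule. *Cd52*, a small surface glycoprotein of leukocytes, had a UMI in 154 of 162 members (95.1%), against 0.966% of 18739 cardiomyocyte barcodes, at median depths of 4794 and 11666 UMIs. The leukocyte phosphatase *Ptprc* had one in 137 members (84.6%) against 0.448% of cardiomyocyte barcodes. All 8 genes of the pan-leukocyte list were detected, and their sum was 5539 and 6484 CPM (UMIs scaled to the total of the class in that library) in the controls, against 6428 and 5770 CPM in *Ets1* eKO. Among markers of other heart cells, 8 endothelial genes summed to 68.96 and 13.9 CPM in the controls, against 75.1 and 44.8 CPM in *Ets1* eKO, *Fabp4* being the most abundant. The 9 cardiomyocyte genes outside the rule summed to 771 and 321 CPM against 763 and 934 CPM, led by *Myl2*. The 8 fibroblast genes summed to 379 and 55.8 CPM against 325 and 560.5 CPM, led by *Col3a1*. In C1q-positive cells the same sum was 188 and 743.5 CPM against 202 and 246 CPM. In members these genes came mostly from a group of 8 cells with 4172 CPM, where the other groups held 17.4 to 27.2 CPM. The 5 smooth muscle genes summed to 251 and 13.9 CPM against 45.9 and 33.6 CPM, led by *Acta2*, with *Myh11* at 0. None of the 4 Schwann cell genes had a UMI in a member, and of the 6 epicardial genes *Upk3b*, *Upk1b*, *Msln* and *Lrrn4* were at 0.

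*Ets1* (ENSMUSG00000032035, chromosome 9, 32636221 to 32757820 on GRCm38) was read in endothelial barcodes at 308 and 278 CPM in the controls and at 140 and 101 CPM in *Ets1* eKO. Both *Ets1* eKO libraries lay below both controls there, in the direction of the labels. In C1q-negative leukocytes *Ets1* stood at 15.7 and 27.9 CPM in the controls and at 12.5 and 29.9 CPM in *Ets1* eKO, from 5, 2, 3 and 8 UMIs. The groups overlapped. The log2 change was 0.27 (standard error 0.956, adjusted p = 1 in edgeR's quasi-likelihood test, Benjamini-Hochberg adjusted), and it turned to -0.30 without control 1 and to -0.50 without *Ets1* eKO 2. Only 14 of 162 members (8.64%) held a UMI of *Ets1*, against 10.9% of the deeper cardiomyocyte barcodes, and after thinning each cell to 2000 UMIs the shares were 3.31% and 2.08%. Of the 18 UMIs, 6 lay in 4 of the 16 cells of a mast cell-like group described further on, at 59.3 CPM, against 10.4 to 12.6 CPM in cardiomyocyte barcodes. Background RNA and expression in some members could not be told apart from so few UMIs, and a loss of *Ets1* from these cells was not detectable at this depth.

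C1q-negative leukocytes numbered 47 and 12 in controls 1 and 2, and 39 and 64 in *Ets1* eKO 1 and 2. They made up 0.490% of the filtered cells in control 1 (exact 95% binomial interval 0.360 to 0.651%) and 0.188% in control 2 (0.0971 to 0.328%). In *Ets1* eKO 1 the share was 0.488% (0.347 to 0.667%) and in *Ets1* eKO 2 it was 0.507% (0.391 to 0.647%). Control 2 was low and the other libraries were close together, so control 1 lay between the *Ets1* eKO libraries and the groups overlapped. The group means differed by 0.159 percentage points (two-sided exact permutation p = 0.667 over 2 against 2 libraries, where 0.333 is the smallest p possible), by 0.310 points without control 1 and by 0.00786 points without control 2.

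Of all leukocytes, members were 28.3% in control 1 and 13.2% in control 2, and 20.0% and 23.3% in *Ets1* eKO. The controls enclosed both *Ets1* eKO libraries. The difference of 0.886 percentage points (exact permutation p = 1) was 8.45 points without control 1 and 2.52 points without *Ets1* eKO 1, and turned to -6.68 points without control 2 and to -0.75 points without *Ets1* eKO 2. Leukocytes of both classes together made up 1.73% and 1.43% of control cells and 2.44% and 2.18% of *Ets1* eKO cells. Here each *Ets1* eKO library exceeded each control, by 0.733 points on average (exact permutation p = 0.333, the smallest possible).

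**Figure D1:**
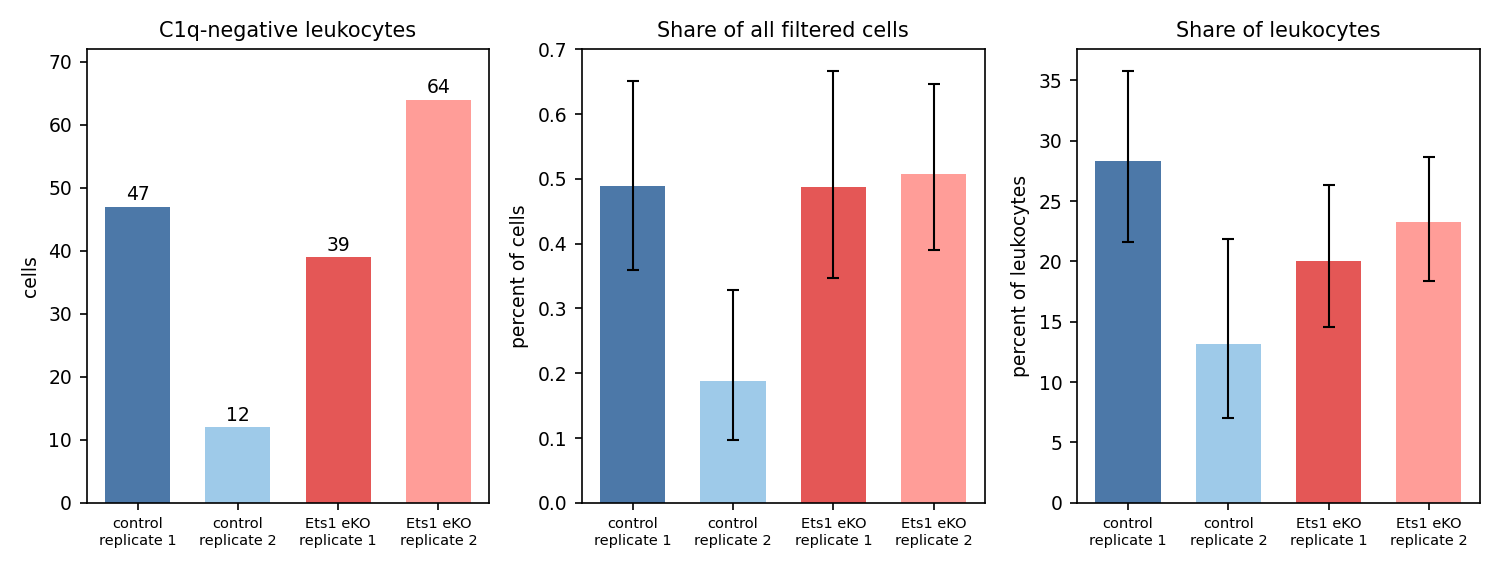
C1q-negative leukocytes in each library as cells (left), as percent of filtered cells (middle) and as percent of leukocytes (right), with exact 95% binomial intervals that cover counting error only. Control replicate 2, with 12 cells, had the lowest share in both plots of percent, and control replicate 1 the highest share of leukocytes.

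C1q-negative and C1q-positive cells were then set side by side. Because C1q counts chose the classes, their difference is a description with no test. Levels are CPM of the UMIs of a class in a library, and ratios are log2 of CPM + 10. Of 5136 genes with at least 20 UMIs over both classes in every library, 6 (0.117%) were at least 4-fold higher and 29 (0.565%) at least 4-fold lower in C1q-negative cells in all 4 libraries. A higher level in all libraries, of any size, was found for 814 genes (15.8%), and a lower one for 1051 (20.5%).

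*Plac8*, a small cysteine-rich protein of monocytes and other myeloid cells, stood at 1072 and 1255 CPM in C1q-negative cells of the controls and at 1443 and 1902 CPM in *Ets1* eKO. In C1q-positive cells it stood at 120.3 and 91.8 CPM, and at 267 and 290.1 CPM. It was thus higher in C1q-negative cells in every library, and the median log2 ratio was 2.86. *Napsa*, an aspartic protease, had the largest median ratio, 2.91, with 209 to 292 CPM in members and 7.91 to 37.3 CPM in C1q-positive cells. The S100 genes *S100a6*, *S100a10* and *S100a11*, which encode small calcium-binding proteins, had ratios of 2.80, 2.17 and 2.31. *Cd74*, the invariant chain of MHC class II, had a ratio of 2.38, and *Cd69*, an early activation antigen, one of 2.72. The other genes named by the size of their ratio were *Itpr1* (2.61), an intracellular calcium channel, *Lyst* (2.53), a regulator of lysosomal granules, *Gpr141* (2.50), *Kcnq5* (2.11) and *Fgl2* (2.05).

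Genes of resident macrophages were among those lowest in C1q-negative cells relative to C1q-positive cells. The mannose receptor *Mrc1* had 0 CPM in both controls and in *Ets1* eKO 2 and 4.17 CPM in *Ets1* eKO 1, the level of 1 UMI. In C1q-positive cells it stood at 883 and 860.5 CPM in the controls and at 675 and 576 CPM in *Ets1* eKO. The median log2 ratio was -6.16. *Lyve1*, the hyaluronan receptor of resident cardiac macrophages, had no UMI in any of the 162 members, against 158 to 326 CPM in C1q-positive cells. Also low were the Fc receptor-like gene *Fcrls* (-5.20), the growth factor *Igf1* (-3.98), the scavenger receptor *Stab1* (-3.90), the endocytic adaptor *Dab2* (-3.84) and the bridging ligand *Gas6* (-3.78). The iron exporter *Slc40a1* had a ratio of -3.57, *Ms4a7* one of -3.55, the collectin *Colec12* one of -3.42 and the endothelin receptor *Ednrb* one of -3.28. *Pf4*, a chemokine of platelets and some macrophages, had the lowest median (-6.28), but in control 1 it stood at 868 CPM in C1q-negative cells against 1108 CPM in C1q-positive cells. All 277 UMIs of *Pf4* in control 1 came from 2 cells.

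**Figure D2:**
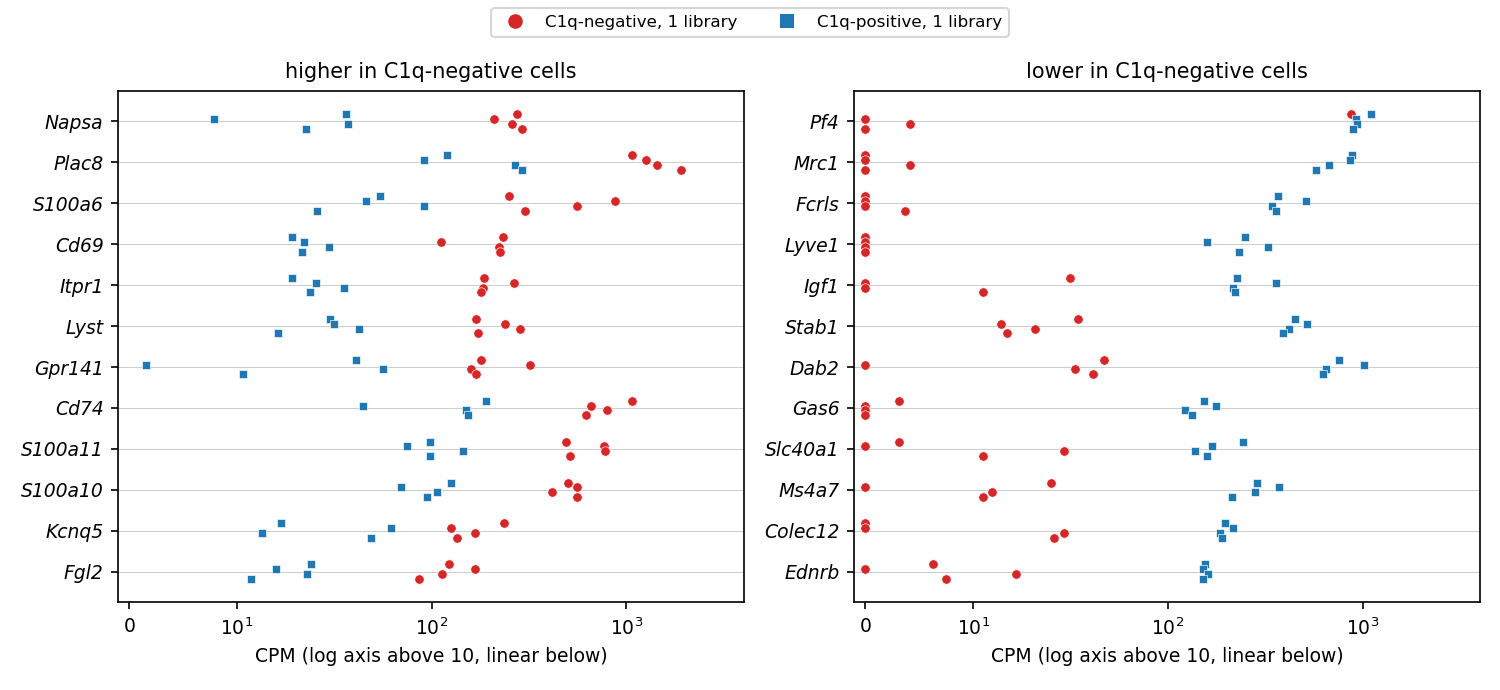
Levels in CPM of the 12 genes with the largest median ratio in each direction, with 1 point per library for C1q-negative (circles) and C1q-positive cells (squares). The axis is logarithmic above 10 CPM and linear below, and the classes are apart in every library except for *Pf4* in control replicate 1.

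The marker lists gave the same division by cell type. Of the macrophage list 11 genes had enough UMIs, 10 were lower in C1q-negative cells in all 4 libraries and none was higher, with a median log2 ratio of -2.31 against -0.02 over all 5136 genes, of which 20.5% were lower in all libraries. *Csf1r*, the receptor for the macrophage growth factor, kept 182 and 223 CPM in members of the controls and 192 and 190.6 CPM in those of *Ets1* eKO, and stood at 563 to 789 CPM in C1q-positive cells. All 15 genes of the list of lysosome and phagocytosis were lower in every library, with a median of -1.36. They included the lipid carrier *Apoe* (-2.84) and the protease *Ctsb* (-2.42).

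Of the monocyte list 5 genes had enough UMIs and 3 were higher in all libraries, where 15.8% of all genes were. *Ccr2*, the receptor that marks monocyte-derived cells, stood at 335 and 516 CPM in members of the controls and at 471 and 329 CPM in *Ets1* eKO, against 45.9 to 143 CPM in C1q-positive cells. *Lyz2*, lysozyme, stood at 1881 and 1952 CPM and at 3996 and 2918 CPM in members, against 860.5 to 1196 CPM. Both *Ets1* eKO libraries were above both controls for *Lyz2* in C1q-negative cells, at a log2 change of 0.90 (standard error 0.284) that did not pass the threshold (adjusted p = 0.679, edgeR with Benjamini-Hochberg adjustment). Of 8 pan-leukocyte genes 6 were higher in C1q-negative cells in all libraries.

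Shares of cells with a UMI were compared at equal depth. *Cpa3*, a mast cell protease, had no UMI in any of 565 C1q-positive cells, which allows a share of cells with a UMI of up to 0.677% of 543 thinned cells. In C1q-negative cells it stood at 912 and 153 CPM in the controls and at 221 and 531 CPM in *Ets1* eKO, from 17 cells. After thinning to 2000 UMIs, which left out 11 of 162 C1q-negative and 22 of 565 C1q-positive cells, *Cpa3* was found in 10.6% of members and in 0.0437% of cardiomyocyte barcodes. The granulocyte gene *S100a8* was found in 15.2% of thinned members (16.0% of all members), 0.553% of C1q-positive cells and 0.109% of cardiomyocyte barcodes. For the MHC class II gene *H2-Aa* these shares were 14.6% (14.2% of all members), 1.84% and 0.0273%, and for *Ccr2* 43.7% (66.0% of all members), 14.9% and 0.0656%. *Plac8* was found in 74.8% (85.2%), 18.4% and 0.257%. Each of these shares was higher in C1q-negative than in C1q-positive cells and cardiomyocyte barcodes, whereas *Lyz2* was found in 56.3% of members (68.5% unthinned), 64.8% of C1q-positive cells and 3.06% of cardiomyocyte barcodes.

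Transcription factors were mixed in direction. The ETS factor *Spi1* (PU.1), which directs myeloid development, had 279 to 442 CPM in C1q-negative and 367 to 445 CPM in C1q-positive cells. *Etv6* was the most abundant ETS gene in members, at 492 and 516 CPM in the controls and at 513 and 399.8 CPM in *Ets1* eKO, and had a ratio of 0.86. *Maf*, a factor of resident macrophages, had 69.7 to 188 CPM in members against 669.8 to 994 CPM (ratio -2.87). Of 13 myeloid factors with enough UMIs, 3 were higher and 5 lower in members in all libraries, beside 15.8% and 20.5% of all genes. Chemokine and cytokine genes were lower for 8 of 12, among them *Ccl4* (-1.76) and *Ccl3* (-1.68), while *Il1b* was alike (-0.05). Of 11 genes of S phase and mitosis, 4 were higher in all libraries and none lower, with a median of 0.25 against -0.02 over all genes.

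Clustering of the 162 members on 1000 variable genes, without the genes of the rule, gave 6 groups. The name of a group rests on marker lists. A neutrophil-like group of 32 cells was led by *S100a8*, *S100a9*, the stefin genes *Stfa1*, *Stfa3*, *Stfa2l1*, *Cstdc4* and *Csta2*, and by *Mgst1*, *Ly6c2* and *Gda*. Its neutrophil genes summed to 41350 CPM, against at most 140.3 CPM in the 4 other groups of 10 or more cells. It also held 16640 CPM of the monocyte list, with *Lyz2* in 31 of 32 cells, and by the list with the most UMIs 21 of its cells were nearest monocytes and 11 nearest neutrophils. The name therefore covers cells with monocyte genes as well as granulocytes.

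A dendritic-like group of 29 cells was led by the MHC class II genes *H2-Aa*, *H2-Ab1*, *H2-Eb1*, *H2-DMb1*, *Cd74* and their activator *Ciita*, and its leading genes also included *Ctnnd2*, *Gm15987* and *Kctd14*. Its dendritic genes summed to 8213 CPM, and *Lyz2* was found in 7 of its 29 cells. A mast cell-like group of 16 cells had among its leading genes the proteases *Cma1*, *Cpa3*, *Mcpt8* and *Gzmb*, the histamine-forming enzyme *Hdc*, the factor *Gata2*, and *Adamts9*, *Cd200r3* and *Ifitm1*. Its mast cell genes summed to 8147 CPM and its basophil or eosinophil genes to 1157 CPM, of which *Mcpt8* and *Cd200r3* are basophil markers. No UMI of *Lyz2* was found in this group.

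The 3 remaining groups were left unnamed. The largest, of 49 cells, was led by *Nbdy*, *Tbc1d16*, *Itga6*, *Cmas*, *Adgre4*, *Hmgn5*, *Immp1l*, *Nppa*, *Dcps* and *Rnf220*, and 37 of its cells were nearest the monocyte list. It held the highest sum of S phase and mitosis genes (2272 CPM) and the 2 cells nearest the megakaryocyte list. A group of 28 cells was led by *Hbb-bs*, *Hba-a1*, *Ifit1*, *Ifit2*, *Ifit3*, *Isg15*, *Daxx*, *Herc6*, *Phf11b* and *Parp14*, which are globin and interferon-induced genes. Of the 28 cells, 9 had a UMI of *Ifit1*, 11 of *Ifit2*, 8 of *Ifit3* and 17 of *Isg15*. The most UMIs of *Ifit1* lay in 1 cell of control 2, with 15, and 1 cell of control 1, with 10. The globin lead came from 1 cell of control 1, which held 1357 of the 1370 UMIs of *Hbb-bs* and 394 of the 403 UMIs of *Hba-a1* in the group. Of its cells 26 were nearest the monocyte list, and its sums of interferon (5093 CPM) and macrophage genes (2312 CPM) were the highest among the 6 groups. A group of 8 cells was led by *Erbb4*, *Ptn*, *Col3a1*, *Col1a2*, *Fstl1*, *Col1a1*, *Dcn*, *Fbxl7*, *Rgs6* and *Unc5c*. It had 4172 CPM of fibroblast genes and a median of 9738.5 UMIs, and both members with the top doublet scores of their library were in it.

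**Figure D3:**
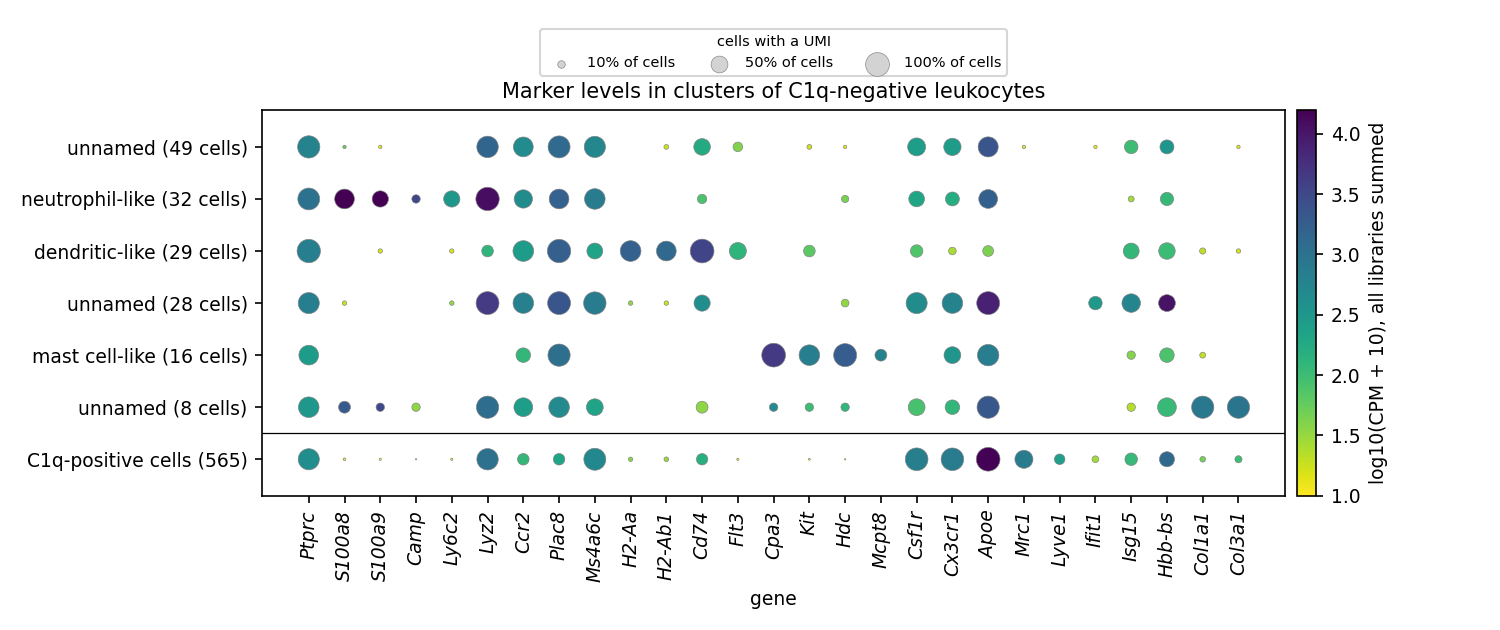
Marker genes in the 6 groups of C1q-negative leukocytes and in C1q-positive cells, over all libraries. Colour gives log10 of CPM + 10 and dot area the percent of cells with a UMI, with *S100a8* and *S100a9* highest in the neutrophil-like, MHC class II genes in the dendritic-like and *Cpa3* and *Hdc* in the mast cell-like group.

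Classing each member by the marker list with the most UMIs gave 99 monocyte, 22 dendritic, 15 mast cell, 13 neutrophil, 4 macrophage and 2 megakaryocyte cells. The basophil list led in 1 cell, the list of natural killer, T and innate lymphoid genes in 1, and 5 cells had no leading list. No cell was nearest the granulocyte precursor or B lineage list. The 14 natural killer, T and innate lymphoid genes summed to 113 and 209 CPM in the controls, against 58.4 and 142 CPM in *Ets1* eKO. Over all libraries this was 115 CPM in members and 7.28 CPM in C1q-positive cells, and 326 CPM in the mast cell-like group. *Il7r* led the list, with *Cd3e*, *Ncr1* and *Gata3* at 0. B lineage genes summed to 47.0 and 13.9 CPM and to 54.2 and 44.8 CPM, led by *Cd79b*, with *Cd79a* and *Pax5* at 0. By these lists, the C1q-negative leukocytes were mostly myeloid, and the monocyte list led in 99 of 162. That count depends on how abundant the genes of a list are, for which the UMIs were not scaled. *Plac8* of the monocyte list had a UMI in 138 members, and 8 cells of the dendritic-like group were nearest that list.

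All 3 named groups had cells from every library, but the 3 neutrophil-like cells of control 2 held no UMI of *Camp*, *Ngp*, *Ltf*, *Lcn2* or *S100a9*, and 6 UMIs of *S100a8* in 1 cell. The dendritic-like group took 11 of 47 and 3 of 12 members in the controls, against 6 of 39 and 9 of 64 in *Ets1* eKO. As shares, both *Ets1* eKO libraries were lower than both controls (difference -9.48 percentage points, exact permutation p = 0.333, the smallest possible, and 0.667 after adjustment over 5 groups). The mast cell-like group took 7 and 1 members in the controls, against 4 and 4 in *Ets1* eKO, and its shares overlapped (difference -3.36 points, exact permutation p = 0.667). It was -0.0801 points without control 1, -6.64 without control 2, -5.36 without *Ets1* eKO 1 and -1.36 without *Ets1* eKO 2. At double resolution a mast cell-like group of 10 cells differed by -5.86 points, without overlap (exact permutation p = 0.333, the smallest possible). Classed by the list with the most UMIs, mast cells differed by -0.451 points.

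The neutrophil-like group took 4 and 3 members in the controls, against 12 and 13 in *Ets1* eKO. Its share was lowest in control 1 (8.51%) and highest in *Ets1* eKO 1 (30.8%), and control 2 lay above *Ets1* eKO 2, so the groups of libraries overlapped (difference 8.79 points, exact permutation p = 0.667). It was 0.541 points without control 1, 17.03 without control 2, 3.56 without *Ets1* eKO 1 and 14.0 without *Ets1* eKO 2. Classed by the list with the most UMIs, neutrophil cells numbered 2 and 0 among members of the controls, against 5 and 6 for *Ets1* eKO, or 2.13% and 11.1% on average. By that rule the groups did not overlap (exact permutation p = 0.333, the smallest possible). Genes that define it changed between genotypes, so neither count was read as a separate result. The unnamed group of 49 cells made up 25.3% of control members on average and 31.6% of *Ets1* eKO members, and that of 28 cells 20.0% and 13.7%. The differences were 6.31 and -6.31 points (exact permutation p = 0.333 and 0.667). Without *Ets1* eKO 1 the first was 12.2 points and without *Ets1* eKO 2 it was 0.375. The second was -2.95 points without control 1, -9.68 without control 2, -2.85 without *Ets1* eKO 1 and -9.78 without *Ets1* eKO 2. The first turned to -1.30 points at double resolution, and the second to 4.05 and 7.08 points at 0.5 and 2 times the resolution.

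**Figure D4:**
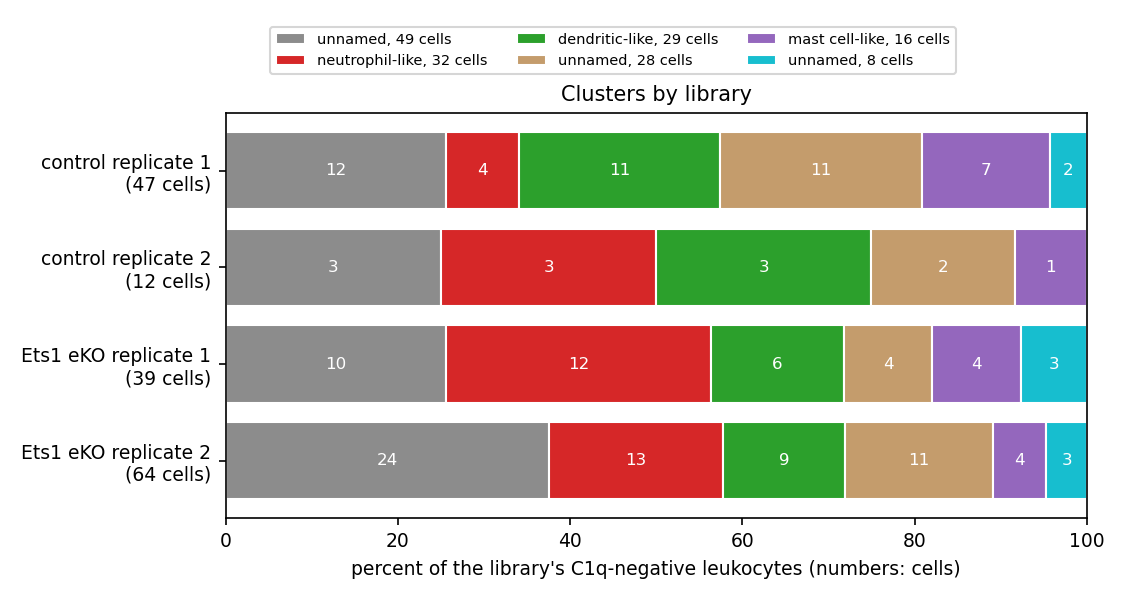
Percent of the C1q-negative leukocytes of each library in the 6 groups, with cell counts inside the bars. The dendritic-like group takes 11 and 3 cells of the controls and 6 and 9 cells of *Ets1* eKO, and the group of 8 cells is absent from control replicate 2.

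The effect of genotype was tested on UMIs summed over the C1q-negative cells of each library, a contrast the rule did not use. Such p-values rest on spread between the 2 libraries of pooled embryos in each group. For the larger part they rest on spread shared over genes, weighted at 15.7 degrees of freedom. How many cells hold the UMIs of a gene does not enter them. A summed level also does not tell more cells of a type from more RNA per cell. Of 4499 genes tested, 11 (0.244%) were higher and 3 (0.0667%) lower in *Ets1* eKO at an adjusted p of at most 0.05 by edgeR (quasi-likelihood) after Benjamini-Hochberg adjustment, and 178 had an unadjusted p under 0.05. By DESeq2 6 were called, all of them among the 14, and with any 1 library left out edgeR called 36 to 54. The 11 higher genes encode proteins of neutrophil granules and cytosol, and stefins.

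*Camp* (ENSMUSG00000038357, chromosome 9, 109847379 to 109849617), the cathelicidin of neutrophil granules, had no UMI in either control and stood at 918 and 579 CPM in *Ets1* eKO. Against a floor of 3 UMIs over the controls, 7.68 CPM, this was at least 97.5-fold higher (adjusted p = 4.37e-06, edgeR with Benjamini-Hochberg adjustment). *Ltf*, lactoferrin of the same granules, also had none in the controls and stood at 254 and 85.9 CPM, at least 22.2-fold higher (adjusted p = 0.00176, edgeR with Benjamini-Hochberg adjustment). In *Ets1* eKO 1, 1 cell held 57 of its 61 UMIs. The bound uses the mean of both *Ets1* eKO libraries and would be lower for *Ets1* eKO 2 alone. Within C1q-negative cells both genes were read in *Ets1* eKO alone, but in few cells. *Camp* was found in 3 of 39 members of *Ets1* eKO 1, where 1 cell held 209 of 220 UMIs, and in 2 of 64 of *Ets1* eKO 2. The share of cells with a UMI of *Camp* had exact 95% intervals of 0 to 7.55% and 0 to 26.5% in controls 1 and 2. In *Ets1* eKO they were 1.62 to 20.9% and 0.381 to 10.8%. These overlapped, but they cover counting error only. With 12 members, control 2 has a wide interval even at 0 cells, so the overlap decides nothing about genotype.

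*Ngp* (ENSMUSG00000032484, chromosome 9, 110419747 to 110423012), neutrophilic granule protein, stood at 3.14 and 0 CPM in the controls and at 1251 and 407 CPM in *Ets1* eKO (log2 change 8.10, standard error 0.826, adjusted p = 3.1e-05, edgeR with Benjamini-Hochberg adjustment). *Lcn2*, the iron-siderophore binding lipocalin, stood at 3.14 and 0 CPM and at 467 and 202 CPM (6.80, standard error 0.781, adjusted p = 9.25e-05, edgeR with Benjamini-Hochberg adjustment). These sizes rest on 1 UMI of each gene in control 1. Without control 1, which leaves control 2 at 0 UMIs, the log2 changes of *Ngp* and *Lcn2* were 10.32 and 9.01. Without *Ets1* eKO 1 they were 7.09 and 6.08. Both *Ets1* eKO libraries lay far above both controls, and again 2 cells of *Ets1* eKO 1 and 2 of *Ets1* eKO 2 held all UMIs of *Ngp* in that genotype. The cell with the most UMIs of *Camp* in *Ets1* eKO 1 also held 284 UMIs of *Ngp*, 90 of *Lcn2*, 583 of *S100a8* and 607 of *S100a9*.

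*S100a8* (ENSMUSG00000056054, chromosome 3, 90668978 to 90670035) and *S100a9* encode the subunits of calprotectin. *S100a8* stood at 386 and 83.7 CPM in the controls and at 5377 and 2063 CPM in *Ets1* eKO (log2 change 3.83, standard error 0.502, adjusted p = 0.000483, edgeR with Benjamini-Hochberg adjustment). It was found in 3 of 47 and 1 of 12 members of the controls and in 12 of 39 and 10 of 64 of *Ets1* eKO, which is 6.38% and 8.33% against 30.8% and 15.6%. Both levels and shares were above both controls in both *Ets1* eKO libraries, but the level lay mostly in the cells with granule genes. The 3 members with a UMI of *Camp*, *Ngp*, *Ltf* or *Lcn2* held 955 of 1289 UMIs of *S100a8* in *Ets1* eKO 1, and 3 such members held 448 of 552 in *Ets1* eKO 2. The other 334 and 104 UMIs lay in 9 and 7 cells. *S100a9* stood at 464 and 0 CPM and at 5081 and 2463 CPM (3.77, standard error 0.638, adjusted p = 0.00732). In control 1, 1 cell held 100 of 123 UMIs of *S100a8* and 142 of 148 of *S100a9*. Without that library the log2 changes were 5.52 and 12.51, the second against control 2 at 0 UMIs. They were 3.01 and 3.20 without *Ets1* eKO 1, and 3.32 and 3.08 without control 2. DESeq2 called neither gene, and over all alternatives the adjusted p ran from 9.14e-30 to 0.193 for *S100a8* and from 1.54e-29 to 1 for *S100a9*, DESeq2 giving the highest.

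The stefins, cystatin-type protease inhibitors encoded side by side on chromosome 16, are near-identical copies, so their counts could be split between them and single values are uncertain. *Stfa1* stood at 144 and 209 CPM in the controls and at 1890.0 and 833 CPM in *Ets1* eKO (log2 change 3.07, standard error 0.425, adjusted p = 0.000835, edgeR with Benjamini-Hochberg adjustment). It had a UMI in 4 and 1 members of the controls and in 12 and 10 of *Ets1* eKO, where 2 cells held 321 of 453 and 129 of 223 UMIs. *Cstdc5* (4.03), *Cstdc4* (3.19), *Stfa3* (3.37) and *Stfa2l1* (3.33) were called in the same direction, each with both *Ets1* eKO libraries above both controls. DESeq2 called none of these 4. Their size depended on control 1, without which *Cstdc5* came to 10.36, *Cstdc4* to 9.74 and *Stfa2l1* to 8.79, all against control 2 at 0 UMIs. Without *Ets1* eKO 1 *Cstdc5* was 2.51, and without control 2 *Stfa3* was 4.24. Neither *Stfa3* nor *Stfa2l1* was called with total count scaling or with the wider cell filter, nor was *Stfa3* without control 1 (log2 change 2.10) or *Stfa2l1* without *Ets1* eKO 1 (2.01).

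For the 3 lower genes, the UMIs lay in few cells or mostly in 1 cell. *Ccl5*, a chemokine, stood at 392 and 209 CPM in the controls and at 16.7 and 11.2 CPM in *Ets1* eKO (log2 change -4.43, standard error 0.505, adjusted p = 9.25e-05, edgeR with Benjamini-Hochberg adjustment). Its UMIs came from 1 cell in each library, with 125, 15, 4 and 3 UMIs. The cell of control 1 held 1 C1q UMI, and with members limited to 0 C1q UMIs *Ccl5* had too few counts to be tested. *Nrgn*, neurogranin, stood at 132 and 167 CPM and at 0 and 18.7 CPM (-3.75, adjusted p = 0.0119), from 2, 1, 0 and 3 cells. With the wider cell filter its log2 change was -0.63 with no call, and without *Ets1* eKO 2, which leaves *Ets1* eKO 1 at 0 UMIs, it was -7.91. DESeq2 did not call it, the adjusted p over the alternatives running from 1.02e-06 to 0.999. *Hbb-bs*, an adult beta globin, stood at 4567 and 41.8 CPM and at 108.5 and 82.2 CPM (-4.59, adjusted p = 0.0454), and 1 cell held 93.1% of its UMIs in control 1. Control 2 lay below both *Ets1* eKO libraries, and without control 1 the log2 change of *Hbb-bs* was 1.23. With 2 members of control 1 left out for over 2% hemoglobin UMIs it was 0.45 (adjusted p = 1), and the other 13 genes were still called.

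**Figure D5:**
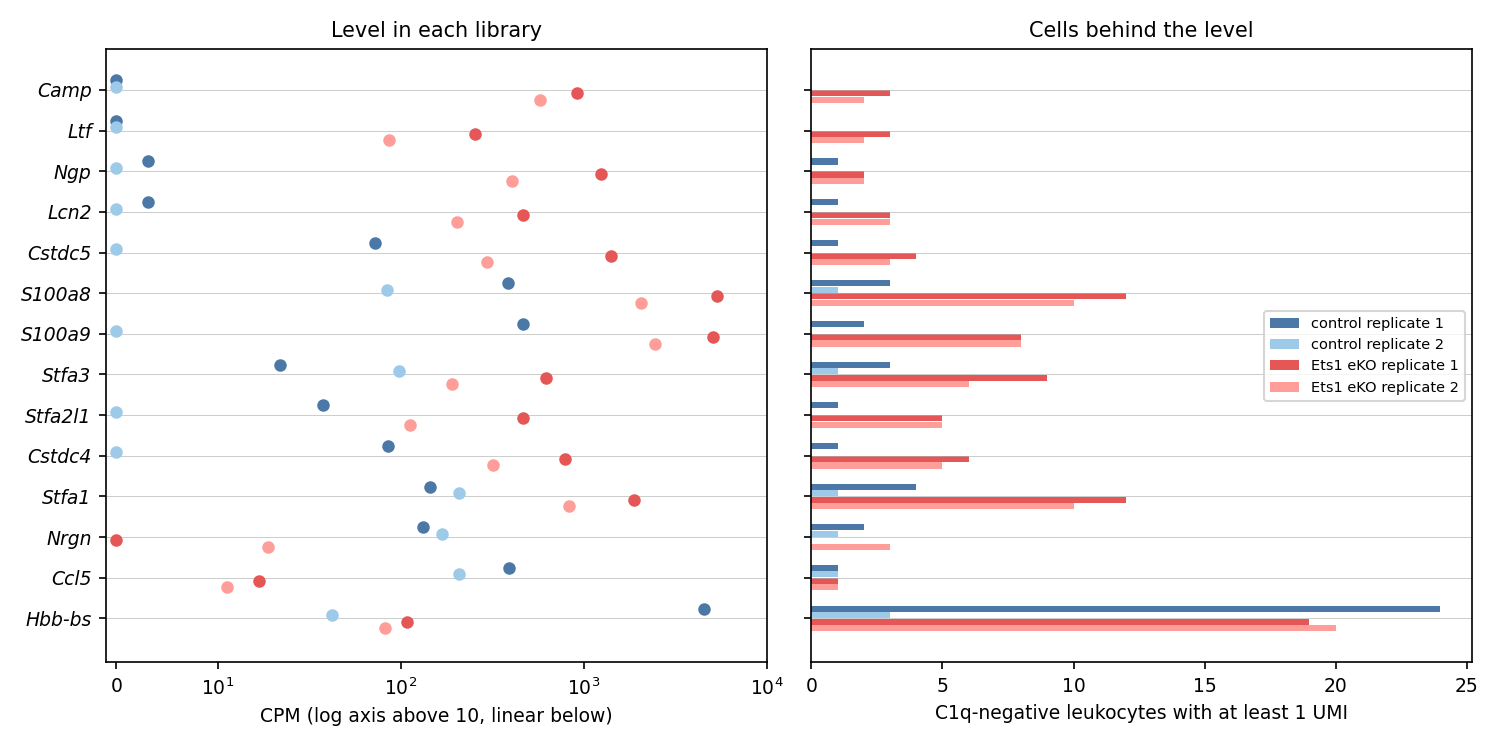
The 14 genes called between *Ets1* eKO and control in C1q-negative leukocytes, as CPM in each library (left, axis logarithmic above 10 CPM and linear below) and as the number of members with at least 1 UMI (right). *Camp*, *Ltf*, *Ngp* and *Lcn2* had a UMI in 2 or 3 cells of each *Ets1* eKO library, and *S100a8* and *Stfa1* in 10 or 12, most of their UMIs lying in 2 or 3 of these.

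By list, 7 of 12 neutrophil genes were tested and 6 called higher, where 0.244% of all 4499 genes were. The filter on low counts fixed part of this count, since *Camp*, *Ltf*, *Ngp* and *Lcn2* had 0, 0, 1 and 1 UMI over both controls and entered through *Ets1* eKO alone. No median is therefore given for this list. The summed level of the neutrophil list came to 965.5 and 153 CPM in the controls, against 14090 and 5938 CPM in *Ets1* eKO, and *S100a9* was its most abundant gene. In C1q-positive cells the same sum was 61.3 and 71.2 CPM against 62.2 and 55.0 CPM. The neutrophil-like group held 1774 UMIs of *S100a9* in 15 of its 32 cells and 373 UMIs of *Camp* in 4. Without that group of cells 5 genes were called, *S100a8*, *Ccl5*, *Nrgn* and *Hbb-bs* among them, an alternative chosen after the data were seen. Of the 176 UMIs of *S100a8* left there, 160 lay in 1 cell of *Ets1* eKO 1, in the group of 8 cells with fibroblast genes. *Ets1* eKO 2 held 14 of them, against 1 and 0 in the controls. The call outside the neutrophil-like group was not tested without that cell of *Ets1* eKO 1.

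The other lists had no called gene apart from *Hbb-bs* in the erythroid list. All 7 monocyte genes tested had log2 changes above 0 (median 0.62), all 5 dendritic genes below 0 (median -0.36) and all 3 mast cell genes below 0 (median -0.58), without a call. Over all 4499 genes 2332 (51.8%) were above 0. Of lists of other heart cells, all 6 cardiomyocyte genes tested were above 0 (median 0.71) and 4 of 5 fibroblast genes (median 0.72), also without a call. The summed levels of both lists, given above, overlapped between the groups. The part of the cardiomyocyte genes in the changes was not tested. The test was repeated without the unnamed group with 4172 CPM of fibroblast genes, an alternative chosen after the data were seen. It called 17 genes, all 14 main calls among them. *Ly6c2*, a monocyte gene, stood at 15.7 and 97.6 CPM in the controls and at 66.7 and 37.4 CPM in *Ets1* eKO, and its groups overlapped. Of 9 ETS genes tested none was called (median 0.18), nor was any of 13 myeloid transcription factors (median -0.14), 14 genes of lysosome and phagocytosis (median 0.20) or 13 of S phase and mitosis (median 0.15). Interferon genes had a median of 0.35 over 9 tested. The granulocyte precursor gene *Prtn3* stood at 31.4 and 0 CPM in the controls and at 113 and 78.5 CPM in *Ets1* eKO (2.00, adjusted p = 0.551, edgeR with Benjamini-Hochberg adjustment).

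The sex of the pooled cells differed between libraries. *Xist*, expressed in female cells, had no UMI in members of control 1, and stood at 460.1 CPM in control 2 and at 296 and 456 CPM in *Ets1* eKO. The Y-linked gene *Ddx3y* stood at 106.6 and 13.9 CPM in the controls and at 41.7 and 3.74 CPM in *Ets1* eKO. Control 1 therefore had no sign of female cells, and the part of sex in the changes was not tested.

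C1q-positive cells were tested in the same way. Of 8269 genes none passed by edgeR (0.0% in either direction), 560 had a p under 0.05 before adjustment, and 2 were called by DESeq2. With 1 library left out edgeR called 24 to 247, the most without control 1 (57 higher and 190 lower), and the replicate block gave 9, so the count of 0 does not show that these cells were unchanged. The difference between the change in C1q-negative and that in C1q-positive cells was tested as its own term over 7425 genes. No gene had a higher change in C1q-negative cells (0.0%) and 4 (0.0539%) had a lower one, all of them globin genes, while DESeq2 called none. Directions varied with the setting, with 65 higher and 16 lower without control 1, which kept none of the 4, 12 and 7 without *Ets1* eKO 2, 8 and 12 without control 2, and 1 and 7 without *Ets1* eKO 1. The replicate block gave 14 higher and 9 lower, and no filter on low counts 11 and 8. The same counts before adjustment were 299 at p under 0.05 by edgeR and 56 by DESeq2. With cells of over 2% hemoglobin UMIs left out, an alternative chosen after the data were seen, the test of the difference called no gene. For the neutrophil genes this test could not be read, since C1q-positive cells held 1, 0, 1 and 0 UMIs of *Camp* and none of *Ngp* or *Lcn2*, and so had next to no value to compare.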

How the data were processed

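RNA was counted in single cells of 2 control and 2 *Ets1* eKO libraries (10x Chromium 3' v3.1). The authors deposited UMI counts per gene and barcode, made with Cell Ranger 7.1.0 on mm10 and not normalized. Seurat 4.3.0 is named for their later steps, which the matrices do not hold. The paper also names CellBender for background RNA, DoubletFinder for doublets and a limit of 2% hemoglobin, and whole counts do not show whether the first 2 preceded deposit, whereas some barcodes exceeded the limit. The members and lists were chosen with earlier results of these data known. Cells were picked by the limits given at the opening of the results, from 32285 genes. Positions are those of GENCODE vM21 on GRCm38. Of the fixed lists *Clec7a* was not used here.

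Shares carry exact Clopper-Pearson intervals and were compared by two-sided exact permutation of the libraries. Cells were thinned to 2000 UMIs for shares with a UMI, leaving out shallower ones. Cardiomyocyte barcodes had at least 1% of UMIs from the 4 cardiomyocyte genes of the rule, and endothelial barcodes at least 10 UMIs of the 4 endothelial genes, under 0.5% from those cardiomyocyte genes and no UMI of *Tyrobp* or *Fcer1g*. For each library and class the UMIs were added up, and edgeR 4.0.16 was run under R 4.3.3 (TMM scaling, filterByExpr at a minimum count of 10, quasi-likelihood). The Benjamini-Hochberg threshold was 0.05 over all genes tested. The difference between classes came from a fit with terms for library, for class and for class by condition. The tests were tried on simulated data, and no value of that trial is used here. *Ets1* was kept whatever its count, and 3' counts do not show which exons a transcript holds.

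Members were clustered with Leiden (leidenalg 0.10.2, igraph 0.11.9, scanpy 1.11.5) on 1000 variable genes, 15 components and 15 neighbours at resolution 0.8, leaving out the genes of the rule and mitochondrial, ribosomal, hemoglobin and sex-linked genes. A group of at least 10 cells was named by a marker list with at least 2 of its 10 leading genes and at least 3 genes found in 10% of its cells, where hemoglobin genes named none. Each cell was given a doublet score from its 90 neighbours among cells and simulated doublets (2 per cell). No cell was removed by it, and an alternative removed the top scores at 0.8% per 1000 cells, 2847 in all.

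Named genes follow a rule: the genes of the choice of members, *Ets1*, the 12 largest median ratios in each direction between the classes (same direction in all libraries), called genes up to 10 in each direction (5 for the difference), members of the lists, and up to 10 leading genes per group. *Ddx3y*, *Lyz2*, *Ly6c2* and *Prtn3* are list members picked after their values were seen, and *Stfa1*, the call beyond 10, is also a leading gene of a group. The other alternatives used DESeq2 1.42.0, scaling by total counts, all genes without a count filter, a replicate block, each library left out, a stricter C1q limit (0, and at least 5 for C1q-positive cells), at least 6 UMIs of *Tyrobp* and *Fcer1g*, no limits on cardiomyocyte and endothelial genes, 200 to 7000 genes with at most 20% mitochondrial UMIs, at most 2% hemoglobin UMIs (added after the data were seen), resolutions of 0.4 and 1.6, and classes by the list with the most UMIs. The remaining work ran in Python 3.11.15 (numpy 2.4.6, scipy 1.17.1, pandas 2.3.3, matplotlib 3.10.9, scikit-learn 1.9.0) from seed 0. Summed levels of the other lists in members were 62.7 and 13.9 CPM against 209 and 89.7 CPM for granulocyte precursor genes and 263 and 0 CPM against 8.34 and 7.47 CPM for megakaryocyte genes.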

Additional observations from a re-analysis of the deposited data

Results flagged for a closer look

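The change with genotype differed between C1q-negative leukocytes and C1q-positive cells for 4 globin genes, by a test of the difference itself (edgeR quasi-likelihood, Benjamini-Hochberg adjustment over 7425 genes). The log2 difference was -8.79 for *Hbb-bt* (adjusted p = 0.00319), -9.33 for *Hba-a2* (adjusted p = 0.00319), -8.62 for *Hbb-bs* (adjusted p = 0.0137) and -8.21 for *Hba-a1* (adjusted p = 0.0137). In C1q-negative cells *Hbb-bt* stood at 906 and 0 CPM in the controls and at 37.5 and 26.2 CPM in *Ets1* eKO. In C1q-positive cells it stood at 37.3 and 19.0 CPM in the controls and at 2132 and 48.5 CPM in *Ets1* eKO. Control 1 was high in the first class and *Ets1* eKO 1 in the second, and the groups overlapped in C1q-negative cells. Of the UMIs of *Hbb-bt*, 1 cell held 89.6% in C1q-negative cells of control 1, and 1 cell held 98.3% in C1q-positive cells of *Ets1* eKO 1. The 2 alpha globin genes are near-identical copies, so their single values are uncertain. DESeq2 called none of the 4, and without control 1 none was called by edgeR, with differences of 1.34 for *Hbb-bt*, 0.85 for *Hba-a2*, -3.98 for *Hbb-bs* and 2.77 for *Hba-a1*. Leaving out cells with over 2% hemoglobin UMIs, a limit the study names, removed 2 of 47 C1q-negative cells of control 1 and 1 C1q-positive cell of each *Ets1* eKO library. In the largest of these, hemoglobin made up 33.9% of the UMIs in control 1, 80.0% in *Ets1* eKO 1 and 3.02% in *Ets1* eKO 2. None of the 4 genes was then called, with differences of 0.38 for *Hbb-bt*, -0.32 for *Hba-a2*, 0.18 for *Hbb-bs* and -0.33 for *Hba-a1* (adjusted p = 1 for each). The calls thus rested on these cells.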

How the results depend on the processing

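The difference in the share of cells kept its sign under all 10 alternatives, and that in the share of leukocytes under 8 of 10, from -6.68 to 8.45 points with 1 library left out. Counts of called genes moved most. With 1 library left out they ran from 36 to 54 in C1q-negative leukocytes, 24 to 247 in C1q-positive cells and 8 to 81 for the difference, each lone library being assumed to vary like the other group. In that order DESeq2 called 6, 2 and 0 genes, no filter on low counts 58, 154 and 19, and removal of likely doublets 31, 8 and 7. With the replicate number as a block (replicate block) they were 28, 9 and 23 and the log2 change of *Ets1* was -0.0697. The labels do not say whether these numbers pair the libraries. Deviations of same-numbered libraries correlated at 0.0545 in C1q-negative cells, over 2 pairs. Sums from so few cells carry much counting error, so this value cannot decide whether the libraries are paired. The wider cell filter left 2 genes for the difference. The alternatives chosen after seeing the data were 3. Leaving out the neutrophil-like group gave 5 genes in C1q-negative cells and 6 for the difference, with *Ets1* at -0.20. Leaving out the group of 8 cells gave 17 genes, all 14 main calls among them, and 6 for the difference, with *Ets1* at 0.54. Leaving out cells with over 2% hemoglobin UMIs gave 13, 0 and 0 genes. There *Hbb-bs* was at 0.448 in C1q-negative cells, and the differences were 0.376 for *Hbb-bt* and 0.180 for *Hbb-bs*. *Ets1* ran from -0.50 to 0.72 with 1 library left out. Shares could not pass the threshold in any setting, as p is at least 0.333 with these libraries, so only their direction was followed: the unnamed group of 49 cells turned to -1.30 points at double resolution, and that of 28 cells to 4.05 and 7.08 points at 0.5 and 2 times the resolution (at 0.5 times both fell into 1 group of 85 cells). With 1 library left out *Hbb-bs* ran from -5.52 to 1.23 in C1q-negative cells, and the differences of *Hbb-bt*, *Hba-a2* and *Hba-a1* from -9.63 to 1.34, -10.89 to 0.85 and -9.33 to 2.77. *Camp*, *Ngp*, *Lcn2*, *Stfa1* and *Ltf* kept direction and call under the 13 alternatives in which they were tested, but were not tested without the neutrophil-like group. *Camp*, *Ngp*, *Lcn2* and *Ltf* had at most 1 UMI in a control, so their direction could hardly turn and its being kept is no support. *Ccl5* also kept direction and call in 13 alternatives, and could not be tested with the stricter C1q limit. Where leaving out a library removed 1 of 2 in a group the fit had fewer samples; other causes were not tested. The 12 members of control 2 limit all comparisons, since 1 UMI there is 13.9 CPM.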
